A study of Mus musculus with 4 samples.

Results

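The genes described here encode the channels that couple glucose metabolism to insulin release in pancreatic β-cells. They were 10 of the 22911 named genes on the array, Kcnj11, Abcc8, Cacna1a, Cacna1c, Cacna1d, Cacna1h, Cacnb2, Cacna2d1, Trpm2 and Trpm5. They were chosen by name for their role and by no cut-off on their values, but earlier results of these data were known. Every gene probe whose transcript accession mapped to 1 of these symbols was taken, which gave 24 of the 56605 gene probes of the array. Of these, 22 probes of 9 genes were bright enough to be tested, among 35087 tested probes of 15471 genes in all. The 2 remaining probes both belonged to Trpm2.

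Glucose that enters a β-cell is metabolized to ATP, and ATP closes the ATP-sensitive potassium (KATP) channel, an octamer of the pore subunit encoded by Kcnj11 and the sulfonylurea receptor encoded by Abcc8. The membrane then depolarizes, voltage-gated calcium channels open, and the calcium that enters triggers the exocytosis of insulin granules. The pore of each calcium channel is formed by an alpha1 subunit, and beta and alpha2delta subunits set how much of it reaches the membrane and how it gates. Trpm5 and Trpm2 encode cation channels that add a depolarizing current, the first opened by intracellular calcium and the second by ADP-ribose.

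The study asked how MOTS-c, a peptide encoded in the mitochondrial 12S rRNA gene, acts on islet cells of aged mice. Islet cells of 60-week-old C57BL/6 mice, labeled male and taken from 4 littermates, were dispersed and cultured for 24 h with 10 μM of either MOTS-c or a scrambled peptide, in which the amino acids stand in another order. RNA of these cells was hybridized to 4 Agilent arrays with a single dye, 2 with the scrambled peptide (replicates 1 and 2) and 2 with MOTS-c (replicates 2 and 3). No group lacked a peptide, all animals were of the same age and genotype, and the treatment was given ex vivo and not to the mice, so these values describe cultured islet cells only.

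All values are log2 signals after quantile normalization, and a difference is always the mean of the MOTS-c arrays minus the mean of the scrambled arrays. Levels of different probes were not read as relative amounts of transcript, because probes differ in how well they bind. They served only to pick the brightest or dimmest probe or gene and to sum markers. Gene spots well above their local background, as flagged by the image analysis software, made up 61.6% to 65.0% of each array, and 0 gene spots were saturated. The median absolute difference between 2 arrays was 0.164 for the scrambled pair, 0.189 for the MOTS-c pair and 0.162 to 0.236 between groups, so arrays of different groups were about as far apart as arrays of the same group. The label of male animals was at odds with the data on every array. Transcripts of the Y chromosome (Kdm5d, Eif2s3y, Uty and Ddx3y, with 7 probes) stood out from background in 0 of 28 readings, and Xist, which the inactive X chromosome expresses, had a signal 23.7 to 33.5 times background. This held for both groups alike.

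No probe passed the test. limma with Benjamini-Hochberg adjustment called 0 of the 35087 probes (0%) at an adjusted p under 0.05, and the smallest adjusted p was 0.474. At an unadjusted p under 0.05 limma gave 2755 probes (7.85%), and 2 of the 22 channel probes were among them, 1 of Kcnj11 and 1 of Cacnb2. A second, descriptive count required, beside that unadjusted p, a 1.5-fold or larger difference. It held 1239 probes (3.53%), of which 852 (2.43%) were lower with MOTS-c, and of the channel probes only 1, of Kcnj11, was in it. With 2 arrays in each group, an exact permutation test of a single probe cannot give a two-sided p under 0.333, so none was run. The standard errors below are limma's, which pool the spread within both groups and draw it toward that of the other probes.

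Kcnj11, the pore of the KATP channel, had the largest difference among the channel probes. Its brighter probe (A_52_P402705) read 9.89 and 9.84 with the scrambled peptide, and 9.22 and 9.09 with MOTS-c. The groups were clearly apart, with a gap of 0.62 between the lower scrambled array and the higher MOTS-c array. The group means were 9.86 ± 0.03 and 9.15 ± 0.09 (SD, n = 2), a difference of -0.71 (SE 0.13, 95% interval -1.04 to -0.38), or 1.64-fold lower with MOTS-c, with an adjusted p of 0.474 in limma. The signal was 16.0 to 29.1 times background on the 4 arrays. Kcnj11 stands in a list of genes that the study selected on these same arrays, so its direction here is not independent evidence. In a mixed islet cell sample, fewer cells of a type and less RNA per cell cannot be told apart.

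The dimmer Kcnj11 probe (A_55_P1961477) read 6.49 and 6.25 with the scrambled peptide and 6.13 and 5.94 with MOTS-c, again without overlap. Its difference of -0.34 (SE 0.15) was smaller, and this probe was only 2.50 to 3.10 times background. The 2 probes thus pointed the same way with unequal size, and the adjusted p of the dimmer one was 0.693 in limma.

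Abcc8, the regulatory subunit through which sulfonylureas close the channel, was measured far above background. Its brighter probe (A_55_P1979814) read 16.17 and 16.04 with the scrambled peptide and 15.78 and 15.88 with MOTS-c. This probe was at 1241 to 1911 times background. The groups did not overlap, and the difference was -0.27 (SE 0.13, limma adjusted p = 0.699), or 1.21-fold. The dimmer Abcc8 probe (A_52_P218188) read 6.98 and 7.27 against 6.79 and 6.76, a difference of -0.35 (SE 0.15, limma adjusted p = 0.682). All 4 probes of the KATP channel thus had every MOTS-c value under every scrambled value. The same was true of 18.6% of all tested probes, so such separation was common on these arrays.

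**Figure D1:**
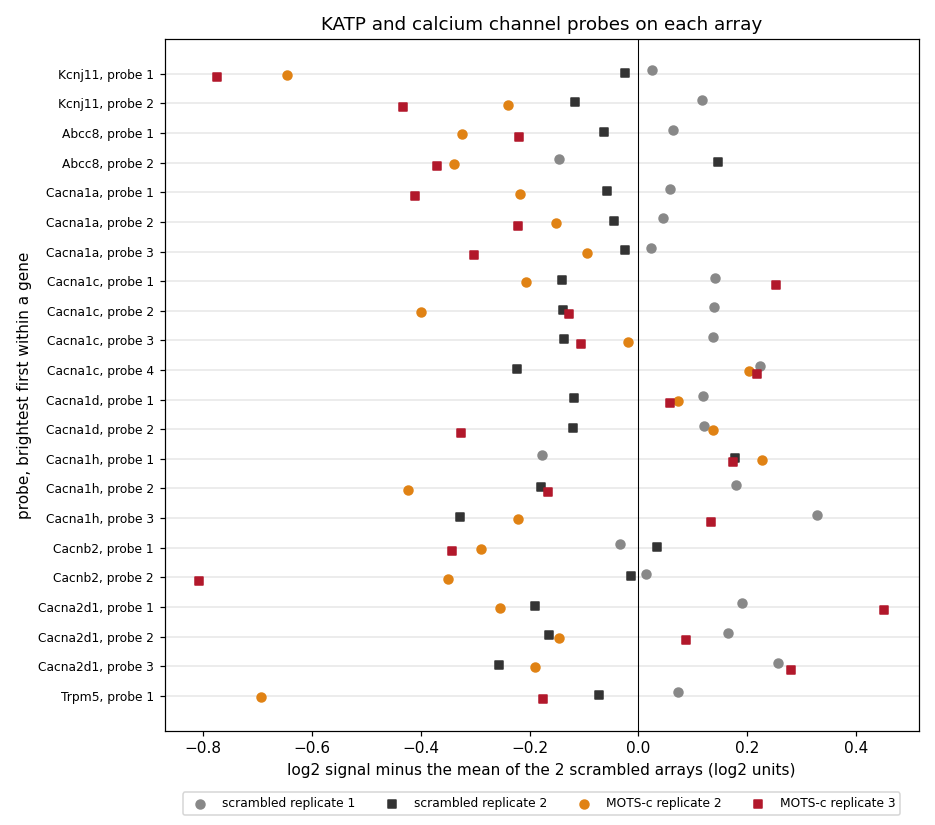
Log2 signal of each of the 22 tested channel probes on each of the 4 arrays, as the distance in log2 units from the mean of the 2 scrambled arrays. Each point is 1 array, and probes of a gene are numbered from the brightest. The MOTS-c points of Kcnj11, Abcc8, Cacna1a, Cacnb2 and Trpm5 lie to the left of both scrambled points, and those of the other genes are mixed with them.

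The pore subunits of the voltage-gated calcium channels did not move as 1 group. Of their 12 tested probes, the 3 of Cacna1a (25.0%) were lower without overlap, beside 18.6% of all probes. The 9 of Cacna1c, Cacna1d and Cacna1h overlapped between groups. The median difference over the 12 probes was -0.08.

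Cacna1a encodes the P/Q-type pore, which carries much of the current at synapses and contributes to exocytosis in β-cells. Its brightest probe (A_55_P2506865) read 11.93 and 11.81 with the scrambled peptide and 11.66 and 11.46 with MOTS-c, a difference of -0.31 (SE 0.14, limma adjusted p = 0.687). The middle probe (A_55_P2142393) read 10.48 and 10.39 against 10.28 and 10.21, a difference of -0.19 (SE 0.12). The dimmest (A_55_P2732041) read 5.69 and 5.64 against 5.57 and 5.36, a difference of -0.20 (SE 0.14), at 1.94 to 2.37 times background. On each of the 3 probes MOTS-c replicate 3 was the lowest array.

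Cacna1c and Cacna1d encode the L-type pores, the targets of dihydropyridine drugs and a main route of calcium entry into β-cells. The brightest Cacna1c probe (A_55_P2235931) read 12.19 and 11.91 with the scrambled peptide and 11.84 and 12.30 with MOTS-c. The MOTS-c arrays were the lowest and the highest of the 4, and the difference was 0.02 (SE 0.21, 95% interval -0.54 to 0.58, limma adjusted p = 0.991). The other 3 probes of Cacna1c differed by -0.26, -0.06 and 0.21, so the probes of this gene did not share a sign.

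The brighter Cacna1d probe (A_51_P251209) read 8.12 and 7.88 with the scrambled peptide and 8.07 and 8.06 with MOTS-c. Both MOTS-c arrays lay between the scrambled arrays, and the difference was 0.07 (SE 0.14, 95% interval -0.30 to 0.44). The dimmer one (A_55_P2125376) differed by -0.09 (SE 0.21). For the L-type pores the intervals of the brightest probes thus included 0 and also changes of up to 0.58 log2 units.

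Cacna1h encodes a T-type pore, which opens at small depolarizations. Its brightest probe (A_66_P135909) read 9.10 and 9.46 with the scrambled peptide and 9.51 and 9.45 with MOTS-c. Only scrambled replicate 1 stood apart, below the other 3 arrays, and the difference was 0.20 (SE 0.17, limma adjusted p = 0.821). The remaining probes differed by -0.29 and -0.04, and the last of them was well above background on 3 of the 4 arrays.

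The auxiliary subunits divided by gene. Cacnb2, a beta subunit that brings the pore to the membrane, was lower on both of its probes without overlap, while the 3 probes of Cacna2d1 all overlapped.

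The brighter Cacnb2 probe (A_55_P2793415) read 9.04 and 9.11 with the scrambled peptide and 8.78 and 8.73 with MOTS-c. The difference was -0.32 (SE 0.12, limma adjusted p = 0.638), and arrays of a group lay close together on it. The dimmer probe (A_52_P209514) read 4.94 and 4.91 against 4.58 and 4.12, a difference of -0.58 (SE 0.19, limma adjusted p = 0.578). Its signal was only 1.34 to 2.00 times background, and its difference was just short of 1.5-fold (1.49-fold).

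Cacna2d1 encodes an alpha2delta subunit, the protein that gabapentin binds. Its brightest probe (A_55_P1988699) read 11.45 and 11.07 with the scrambled peptide and 11.01 and 11.71 with MOTS-c. The replicates of each group differed more than the groups did, and the difference was 0.10 (SE 0.29, 95% interval -0.66 to 0.86). The other probes differed by -0.03 and 0.04. On all 3 probes scrambled replicate 1 and MOTS-c replicate 3 were the higher arrays and scrambled replicate 2 and MOTS-c replicate 2 the lower ones, a pattern that crosses the treatment.

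**Figure D2:**
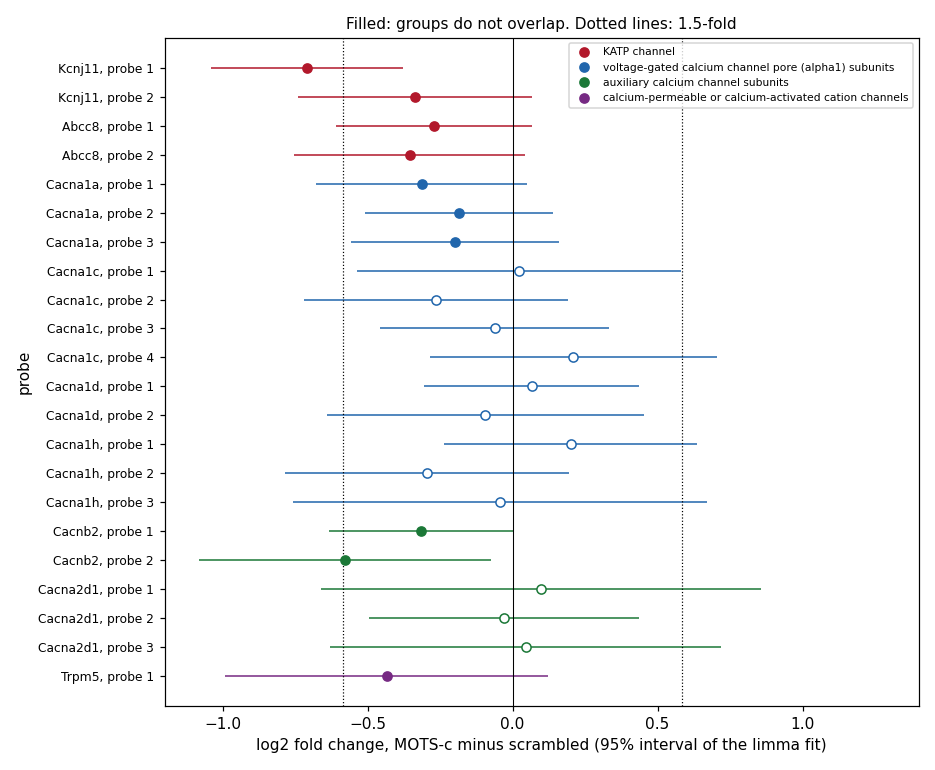
Difference in log2 signal, MOTS-c minus scrambled, for each of the 22 tested channel probes, with the 95% interval from limma as a horizontal bar. The intervals of the brighter Kcnj11 probe (-1.04 to -0.38) and the dimmer Cacnb2 probe (-1.08 to -0.08) lie below 0 before any adjustment over the 35087 probes, and the others include 0.

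Trpm5, the calcium-activated cation channel, had 1 probe (A_66_P131008). It read 12.09 and 11.94 with the scrambled peptide and 11.32 and 11.84 with MOTS-c. Both MOTS-c arrays were below both scrambled arrays, but replicate 3 by only 0.10 while replicate 2 stood well apart. The difference was -0.43 (SE 0.21, limma adjusted p = 0.706), and it was -0.17 without MOTS-c replicate 2 and -0.70 without MOTS-c replicate 3.

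Trpm2, the channel opened by ADP-ribose, could not be assessed. Its 2 probes were well above background on 0 of the 4 arrays. One (A_52_P676635) lay at 1.27 to 1.67 times background and the other (A_66_P112412) was below background on 3 arrays, so no difference is given.

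Over all 22 tested probes of these genes the median difference was -0.19 (-0.086 with the normexp background correction), with a range of -0.71 to 0.21, and 16 were below 0. Over all 35087 probes the median was 0.01 and 47.1% were below 0. The groups did not overlap on 10 of the 22 probes (45.5%), all lower with MOTS-c, and on 0 with MOTS-c higher, beside 18.6% and 19.4% of all probes. Probes of a gene share its transcripts and are not separate measurements, so the count was also taken over genes. Of the 9 genes, the brightest probe of 5 was lower without overlap, and the median over the 9 was -0.27. Between single arrays, the median absolute difference over the 22 probes was 0.257 for the scrambled pair and 0.200 for the MOTS-c pair. It was 0.175 to 0.352 between groups, so these probes also differed within a group.

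The genes fell into 2 sets by this description. Kcnj11, Abcc8, Cacna1a, Cacnb2 and Trpm5 had all of their 10 tested probes lower without overlap, with a median of -0.33. Cacna1c, Cacna1d, Cacna1h and Cacna2d1 had 12 probes, all overlapping, with a median of -0.003 and a range of -0.29 to 0.21. The sets were formed from the values themselves, so this contrast was not tested. Groups separate more easily when 1 of them keeps only 1 array, and with all 4 arrays the share of all probes was 18.6%. The count of 10 depended on the arrays used. Without scrambled replicate 2 it was 17 of the 22 probes, beside 29.3% of all probes, and without scrambled replicate 1 it was 10, beside 35.2% of all probes.

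**Figure D3:**
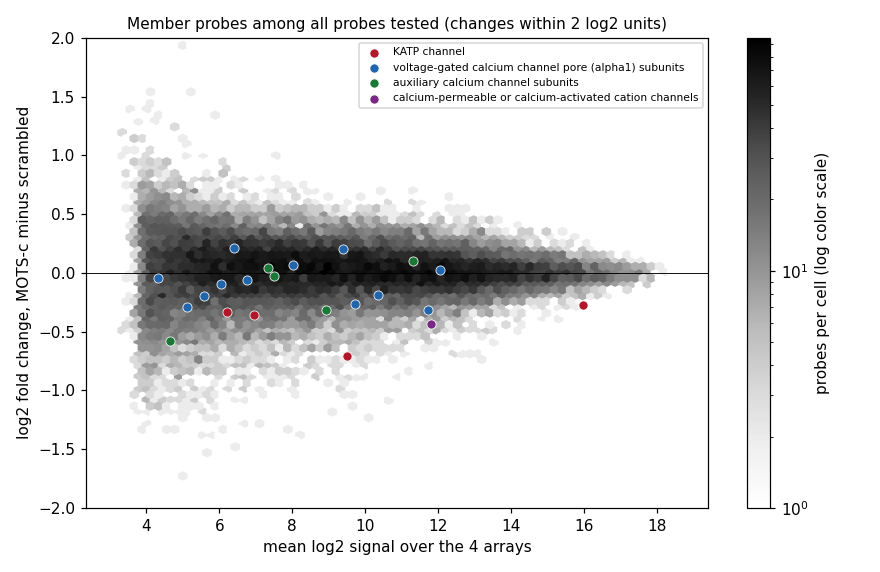
Difference in log2 signal, MOTS-c minus scrambled, against the mean log2 signal over the 4 arrays for the 35087 tested probes, with the 22 channel probes marked. The channel probes span the range from 4.32 (the dimmest Cacna1h probe) to 15.97 (the brighter Abcc8 probe), and all lie between -0.71 and 0.21.

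Other genes of these channel families were taken from fixed lists. The paralogs of the KATP subunits, Kcnj8 and Abcc9, had 1 probe each, and both were well above background on 0 arrays. Of 20 other voltage-gated calcium channel subunits, 15 genes had 20 tested probes. limma with Benjamini-Hochberg adjustment called 0 of them, and their median difference was -0.12. Without overlap, 8 of these 20 probes were lower and 2 higher, beside 18.6% and 19.4% of all probes. For the channel genes these counts were 10 and 0 of 22 probes. A share of lower probes above that of all probes was thus not limited to the channel genes, and its cause was not tested.

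Cacna1g, another T-type pore, was the gene of this list with probes past the second, descriptive count. Its 3 probes differed by -0.43, -0.61 and -0.72 (limma adjusted p = 0.684, 0.600 and 0.600), and none overlapped between groups. The most changed (A_52_P611610) read 5.74 and 5.18 with the scrambled peptide and 4.92 and 4.54 with MOTS-c. Cacna1e, the R-type pore, had 1 tested probe, which read 5.58 and 5.29 against 4.17 and 5.33, a difference of -0.69 (SE 0.41) that rested on MOTS-c replicate 2 and overlapped. The study lists both genes, Cacna1e and Cacna1g, among those it selected on these arrays, so they are not independent evidence either. The brightest gene of the list was Cacng2, a gamma subunit, at -0.10, and the dimmest Cacnb4, a beta subunit, at 0.10, both with overlap.

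Among the other families the medians lay on both sides of 0. Lower without overlap were 7.1% of the TRP and 23.1% of the sodium channel probes, beside 18.6% of all probes. Of all probes, 19.4% were higher without overlap. Other TRP channels, with 14 tested probes of 9 genes, had a median of 0.04, with 1 probe lower and 1 higher without overlap. The brightest of them was Trpm7, a channel with a kinase domain, at 0.15, and the dimmest Trpv6, an epithelial calcium channel, at 0.28. Voltage-gated sodium channel subunits, which shape the action potential, had 13 tested probes of 8 genes with a median of -0.11, 3 lower and 2 higher. Their brightest gene was Scn8a at 0.16, and the dimmest was Scn11a at -0.73 (SE 0.54), which overlapped and was well above background on 2 arrays.

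Genes of intracellular calcium handling (pumps, release channels, store-operated entry, the mitochondrial uniporter, calmodulins and calmodulin kinases) had 55 tested probes of 33 genes. Their median was 0.03. Without overlap, 11 (20.0%) were lower and 16 higher, and the share lower was near the 18.6% of all probes. Of all probes, 19.4% were higher without overlap. Itpr1, an inositol trisphosphate receptor that releases calcium from the endoplasmic reticulum, was past the descriptive count on 1 probe (A_55_P2932328), which read 6.40 and 6.33 against 6.92 and 7.18, a difference of 0.68 (limma adjusted p = 0.499). Its other probes differed by 0.23 and -0.05, so the probes of Itpr1 did not share a sign. The brightest gene, Calm2, a calmodulin, was at -0.04, and the dimmest, Atp2b4, a plasma membrane calcium pump, at -0.30. The other Atp2b4 probe (A_55_P1985268) had the opposite sign, at 1.49 (SE 1.09), with overlap. It read 3.87 and 4.13 against 7.13 and 3.84, so this rested on MOTS-c replicate 2.

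**Figure D4:**
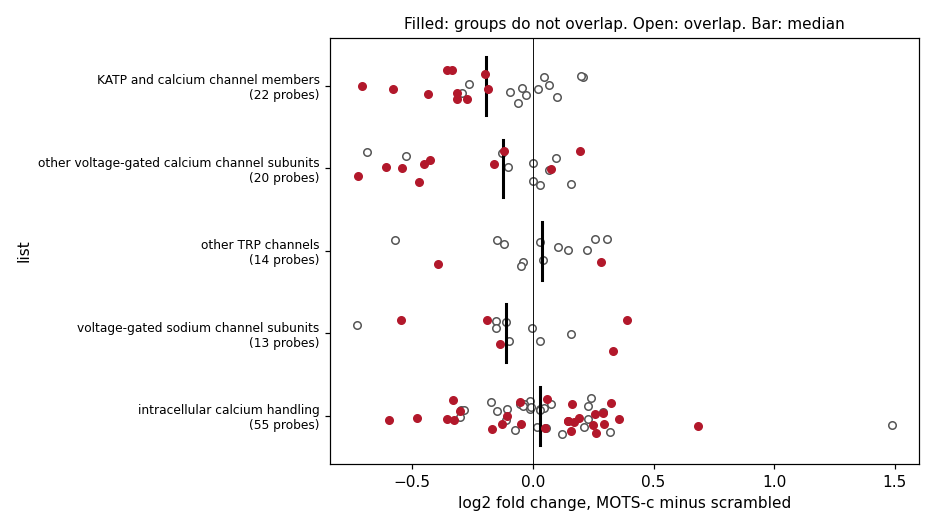
Difference in log2 signal, MOTS-c minus scrambled, for each tested probe of the channel genes and of the other channel and calcium handling lists, with the median of each list as a line. The medians are -0.19 for the channel genes, -0.12 for other calcium channel subunits, 0.04 for other TRP channels, -0.11 for sodium channels and 0.03 for intracellular calcium handling. Kcnj8 and Abcc9 had no tested probe and are not plotted.

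The probes most like the brighter Kcnj11 probe were found by the Euclidean distance over the 4 arrays, each probe centered on its own mean, among 32867 probes well above background on all arrays. Among probes with a gene symbol outside the channel genes, the nearest were Fam166a at 0.0237, Cd300e at 0.0455 and Iqcf5 at 0.0517. The ranks below also count probes without a symbol. Fam166a, for instance, read 5.13 and 5.05 with the scrambled peptide and 4.43 and 4.30 with MOTS-c. Among the channel genes the nearest was the dimmer Cacnb2 probe, at 0.267 and rank 486, ahead of the other Kcnj11 probe at 0.398 and rank 1520. A distance over 4 arrays is a description only.

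Markers of the cells in the sample were set beside these results. The tissue label was borne out by its defining hormones, since Ins1, Ins2 and Iapp lay at 3777 times background or higher on every array. They differed by -0.04, -0.05 and 0.07. Quantile normalization gives the brightest probes of every array nearly the same values, so these differences could hardly be large. Ins2 read 18.54 and 18.64 with the scrambled peptide and 18.54 and 18.54 with MOTS-c, while its signal ranged from 8378 to 12955 times background. Of 10 β-cell markers 9 were tested, 4 lower and 3 higher without overlap, beside 18.6% and 19.4% of all probes. Their summed log2 level was 19.78 and 19.82 with the scrambled peptide and 19.76 and 19.78 with MOTS-c. The hormones make up most of that sum, so the normalization also holds the sum nearly level, and it cannot show whether the share of β-cells differed. The β-cell transcription factors did not share a direction, since Pdx1 differed by -0.28, Mafa by 0.16 and Nkx6-1 by 0.12, each without overlap. Slc2a2, the β-cell glucose transporter, differed by -1.33 on a probe at 1.31 to 2.30 times background, also without overlap.

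Of the other cell types, the summed mesenchymal markers, from 2 tested genes of 6, were lower without overlap (12.44 and 12.31 against 12.23 and 12.23). The neural and Schwann cell list also separated the groups, through 1 tested gene of 4, which does not mark that cell type by itself. In the macrophage list C1qa differed by -0.67 without overlap, and the other tested markers overlapped. Ngfr, a neurotrophin receptor, read 12.84 and 12.81 with the scrambled peptide and 12.42 and 11.84 with MOTS-c, a difference of -0.70 (limma adjusted p = 0.571). Cacna1a is expressed in nerve as well as in β-cells, but whether its values here follow nerve cells was not tested. Summed delta cell markers were 17.22 and 17.77 against 17.22 and 17.21. Summed alpha cell markers were 15.8176 and 15.9035 against 15.9257 and 15.9038, higher without overlap by a very small margin. The part of cell composition in the channel values was not tested.

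**Figure D5:**
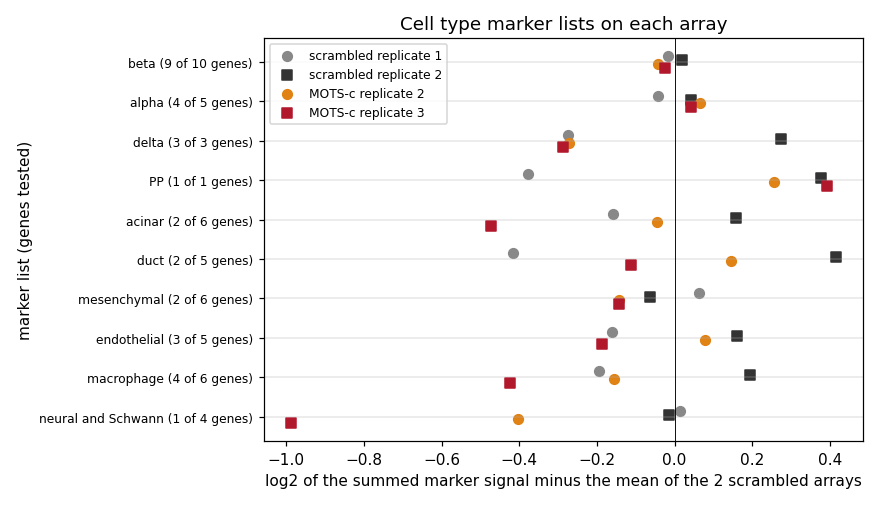
Summed signal of the tested markers of each cell type on each of the 4 arrays, as the distance in log2 units from the mean of the 2 scrambled arrays. Each point is 1 array. The β-cell sums lie close to 0 on all 4 arrays, where quantile normalization of the very bright hormone probes holds them. The mesenchymal sums, which come mostly from Acta2, and the neural and Schwann cell values, which come from Ngfr alone, are lower on both MOTS-c arrays.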

How the data were processed

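Gene expression was measured in islet cells on 4 arrays, 2 per group, and samples were grouped by their labels. The authors amplified and Cy3-labeled the RNA, read the scans with Feature Extraction, and deposited intensity values with the local background removed but no normalization across arrays. A deposited value table holds the same intensities rounded to 3 significant digits. The labels name 4 littermates but do not tie an array to an animal, so p-values measure only the spread between these arrays.

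Control spots (3671 per array) and outlier spots (96 to 131) were left out, intensities were taken to log2, spots of a probe were averaged, and quantile normalization was applied to probes flagged well above background on 2 or more arrays. limma (version 3.58.1, R 4.3.3) compared the groups with Benjamini-Hochberg adjustment over 35087 probes. It had 2 residual degrees of freedom and added 2.64 from the other probes. The 95% intervals used these. Symbols came from the RefSeq accession of each probe (32994 probes) and the gene table of assembly GRCm38.p6, except that 1 Cacna1e probe took its symbol from the study's list. The array design uses a different build, and coordinates are left out. Probes named by other accessions were left out of the gene lists.

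All probes of the 10 genes are named. From the other lists, genes are named with a probe at an unadjusted p under 0.05 and at least 1.5-fold, or as the brightest or dimmest gene, and Cacna1e and Cacna1g because the study lists them. The 3 genes outside the channel genes whose probes lay nearest to Kcnj11 and the markers discussed are also named, the single markers after their values were seen. An item of the marker lists is not reported here. The genes, lists and tests were chosen with earlier results of these data known. The alternatives were a 75th percentile shift, normexp background correction with an offset of 50 on median spot signals, no filter or a filter on all 4 arrays, the authors' value table, a trend in limma, the methods' t-test, the mean over the probes of a gene, and leaving out each array. All arrays lay on 1 slide with 1 scan time, so no batch was fitted. The steps were tested on simulated data. The precision is limited by the number of arrays.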

Additional observations from a re-analysis of the deposited data

How the results depend on the processing

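The brighter Kcnj11 probe kept its direction under every alternative tried, at -0.77 to -0.65 with 1 array left out and at -0.71 to -0.69 otherwise, or -0.52 as the mean of both probes, and its adjusted p stayed above 0.05 wherever it was tested (0.219 in limma with a trend and 0.683 with the methods' t-test). The dimmer probe was -0.09 with normexp. Of the 22 channel probes, 13 kept their sign throughout. For 4 genes the difference changed sign, in Cacna1h only as the mean over its probes, and the cause was not tested. Cacna1c was -0.038 with normexp, -0.023 as the mean of its probes, and -0.21 to 0.25 with 1 array left out. Cacna1d was -0.014 as the mean of its probes and -0.053 to 0.18 with 1 array left out, Cacna1h was -0.046 as the mean of its probes, and Cacna2d1 was -0.26 to 0.45 with 1 array left out. The dimmer Cacnb2 probe was -0.19 with normexp.

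At an adjusted p under 0.05 the methods' t-test called 1 probe, of the histone gene H2ac12, which is named here after its value was seen. Past the unadjusted threshold with 1.5-fold there were 407 probes with normexp, 457 with the methods' t-test, and 1374 to 3264 with 1 array left out, the most without MOTS-c replicate 2. The dimmer Cacnb2 probe was -0.81 without MOTS-c replicate 2 and -0.35 without MOTS-c replicate 3. For Trpm5 these values were -0.17 and -0.70. Channel probes lower without overlap numbered 10 to 17 with 1 array left out, most without scrambled replicate 2, beside 29.3% to 38.3% of all probes. The median over the 22 probes was -0.23 to -0.12 with 1 array left out and -0.086 with normexp, below 0 in each alternative. A group left with 1 array was assumed to vary like the other. No paired analysis was possible because the groups share only 1 replicate number.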
